A study of Homo sapiens with 6 samples.

Results

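The CLK kinases, the L-type cyclins, the SRPK kinases and the TRA2 proteins all act in the control of splicing. The 10 genes followed here were CLK1, CLK2, CLK3, CLK4, CCNL1, CCNL2, SRPK1, SRPK2, TRA2A and TRA2B. They, and the gene lists set beside them below, were chosen by gene name with earlier results of these data known. Counts over them are therefore descriptions. Each of the 10 genes was found in exactly 1 of the 62828 loci of the deposited table. Loci were analysed if their 6 libraries averaged 1 FPKM or more. All 10 genes passed, among 12838 loci, 10299 of them protein-coding. FPKM is fragments per kilobase of transcript, scaled to library size. The CLK4 locus is merged with RN7SKP70, a pseudogene of the 7SK RNA, and the other 9 loci carry 1 gene name each.

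The cells were K562, a human line from the bone marrow of chronic myelogenous leukemia. They were transfected with 300 nM HNRNPU siRNA (knockdown), or with control oligos. From each condition whole-cell, nuclear and cytosolic RNA was taken, depleted of ribosomal RNA and sequenced as 1 strand-specific library, which gives 6 groups of 1 library. HNRNPU is a nuclear RNA-binding protein, and its locus was at 43.0% of the control level in whole-cell RNA, with 39.0% left in the nucleus and 22.1% in the cytosol. That locus is merged with the antisense RNA HNRNPU-AS1, so these values are not of HNRNPU alone. The 7 erythroid genes checked for the K562 label were all at 7.80 FPKM or more. Of 9 markers of T, B and epithelial cells, 2 were listed at 0 throughout, CD3D (11.4 to 16.99 FPKM) and EPCAM (10.7 to 23.7 FPKM) were not low, and the other 5 reached at most 2.12 FPKM.

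With 1 library per group, no difference has a replicate check and no test within a preparation was possible. Depth sets the counting error. A kilobase of transcript at 1 FPKM drew an estimated 18.7 fragments from the knockdown and 23.1 from the control whole-cell library. The nuclear libraries gave 39.0 (knockdown) and 19.4 (control), the cytosolic ones 14.7 (knockdown) and 13.3 (control). Ranges given below as 95% come from these estimated fragments and transcript lengths, and they cover counting only, not the spread between cultures. Ratios are differences of log2(FPKM + 0.1), which understate the change of low loci. Loci past a fixed size (2-fold or 1.5-fold) are set beside the share of all 10299 protein-coding loci past the same size. The values are relative amounts, so less RNA per cell and fewer cells that hold it cannot be told apart.

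SR proteins carry stretches of arginine and serine whose phosphorylation decides where they sit and what they bind. In the standard picture SRPK kinases phosphorylate them in the cytosol, which lets them enter the nucleus, and CLK kinases phosphorylate them further inside the nucleus, which releases them from nuclear speckles. L-type cyclins partner the CDK11 kinases and also sit in speckles, and TRA2 proteins are SR-like factors that bind splicing enhancers. Transcripts of several of these genes are known to keep some introns after the rest has been spliced, and such transcripts stay in the nucleus until the introns are removed. The table has 1 value per locus, so intron-keeping and fully spliced transcripts of a gene cannot be told apart in it.

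The introns that the reference annotation places in intron-keeping transcripts of these genes are shown first. The nuclear values below are set against the number of such annotated transcripts of each gene, not against these sequences. GENCODE release 29 (build GRCh38) has transcript models of the type "retained intron" for 9 of the 10 genes. Such models are common, being present for 59.3% of the 8657 protein-coding loci with a single name of that release. In 8 of the genes, 24 introns of coding transcripts lie whole inside such models. For CLK1, CLK3 and CLK4 an intron with an unusual start stood out. This choice was made after the sequences were seen. The donor end is given as 10 exon and 20 intron bases, 5′ to 3′ on the transcribed strand, with the first 6 intron bases in capitals. The introns lie at chr2:200859747-200860124 (minus strand) for CLK1, chr5:178616949-178617343 (minus strand) for CLK4 and chr15:74622217-74622493 (plus strand) for CLK3, all on GRCh38.
CLK1 donor: agtgcaagatGTATAGaatatttttcaaca
CLK4 donor: agagcaagatGTATAGaatatttttcaaca
CLK3 donor: caagagcgatGTACAGccacctttcgtaaa

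The CLK1 and CLK4 donors were identical at 29 of the 30 bases, and CLK3 matched them at 14 and 15. GTATAG opens 0.245% and GTACAG 0.558% of the 10224 annotated retained introns of protein-coding genes, against 7.89% for GTAAGT. Only the first 6 intron bases on the transcribed strand were read. A match is a description and not evidence of how a site is used. The acceptor ends of the same introns are given as 25 intron and 5 exon bases with the last 2 intron bases in capitals.
CLK1 acceptor: actgagatttatttctctcttttAGatgaa
CLK4 acceptor: acctctttttccctcctcactctAGatgaa
CLK3 acceptor: atgcccaatttcttttctctcctAGatgag

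On the other side of the exon that precedes this intron, CLK1 and CLK4 have a second annotated retained intron, at chr2:200860216-200861237 and chr5:178617435-178618555 (GRCh38, minus strand). The exon between the introns is 91 bases long in both genes, which is not a multiple of 3. In CLK1 an exon in this place is known to be skipped in part of the transcripts, which cuts the reading frame before the kinase domain. Both upstream introns open with GTATGA, which 0.880% of annotated retained introns share.
CLK1 upstream donor: ttcacatgggGTATGAacgtttttaaaaca
CLK4 upstream donor: gtcacgttcgGTATGAttggttttgttttc

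For the cyclins, also after the sequences were seen, the intron held by the most retained-intron models is shown (the lowest coordinate where tied). It lies at chr3:157149978-157150064 in CCNL1 and at chr1:1388066-1388491 in CCNL2 (GRCh38, minus strand). It is held by 2 models in CCNL1 and by only 1 model in CCNL2. The CCNL2 start, GTGAGT, is common, opening 14.9% of annotated retained introns.
CCNL1 donor: cagaaaaaagGTATTCtctatttactcgtt
CCNL2 donor: gtgttgccagGTGAGTactgtggcgtgatc

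The CLK kinases, which act on SR proteins inside the nucleus, had levels between 1.80 and 20.7 FPKM. CLK1 (chr2:201717731-201729422; this and the following loci are on hg19, the build of the table) stood at 9.75 (whole-cell), 12.5 (nuclear) and 8.98 FPKM (cytosolic) in the knockdown libraries, against 10.3, 12.3 and 8.41 FPKM in the matching control libraries. Nuclear RNA was its highest preparation in both conditions, by a small margin. CLK4 (chr5:178029664-178057616), the close relative of CLK1, stood at 8.14 (whole-cell), 10.0008 (nuclear) and 3.57 FPKM (cytosolic) in the knockdown libraries, against 8.27, 11.01 and 1.80 FPKM in the matching control libraries. It was the lowest of the 10 genes in all 6 libraries, and its cytosolic values stood far below its others.

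CLK2 (chr1:155232658-155248282) stood at 14.4 (whole-cell), 14.5 (nuclear) and 15.2 FPKM (cytosolic) in the knockdown libraries, against 14.6, 12.1 and 13.1 FPKM in the matching control libraries. Its 6 libraries lay between 12.1 and 15.2 FPKM, with no preparation apart from the others. CLK3 (chr15:74890840-74932057) stood at 13.5 (whole-cell), 20.4 (nuclear) and 13.5 FPKM (cytosolic) in the knockdown libraries, against 12.5, 20.7 and 15.2 FPKM in the matching control libraries. Its nuclear libraries were the highest. The CLK3 locus overlaps that of EDC3, an mRNA decapping factor at 6.88 to 13.8 FPKM, by 9160 bases, and the CLK2 locus overlaps that of the ion channel gene HCN3 by 910 bases. Strand use in counting is not stated for this table, so fragments from such overlaps cannot be assigned with certainty.

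The cyclin L genes, whose proteins join CDK11 kinases, were several times higher in nuclear than in cytosolic RNA. CCNL1 (chr3:156864296-156878549) stood at 50.8 (whole-cell), 72.6 (nuclear) and 9.62 FPKM (cytosolic) in the knockdown libraries, against 42.7, 66.0 and 9.16 FPKM in the matching control libraries. After knockdown CCNL1 held the highest nuclear level of the 10 genes, and in the control it was level with SRPK1. CCNL2 (chr1:1321090-1334708) stood at 43.6 (whole-cell), 49.6 (nuclear) and 13.8 FPKM (cytosolic) in the knockdown libraries, against 49.0, 63.9 and 11.1 FPKM in the matching control libraries. For both cyclins the whole-cell level lay between the fractions.

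The SRPK kinases, which phosphorylate SR proteins in the cytosol, were highest in cytosolic RNA on the deposited scale. SRPK1 (chr6:35800742-35889119) stood at 59.0 (whole-cell), 66.5 (nuclear) and 93.6 FPKM (cytosolic) in the knockdown libraries, against 53.5, 65.9 and 103 FPKM in the matching control libraries. It was the most abundant of the 10 genes in whole-cell and in cytosolic RNA. SRPK2 (chr7:104751150-105039755) stood at 10.8 (whole-cell), 12.6 (nuclear) and 21.6 FPKM (cytosolic) in the knockdown libraries, against 11.2, 13.04 and 19.1 FPKM in the matching control libraries. SRPK2 overlaps the locus of the chromatin gene KMT2E, at 17.3 to 22.9 FPKM, by 3659 bases. SRPK3, the remaining kinase of the family, lies in a locus merged with PLXNB3 that stayed under the minimum.

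The TRA2 genes differed between themselves. TRA2A (chr7:23544398-23571660) stood at 13.6 (whole-cell), 13.6 (nuclear) and 14.3 FPKM (cytosolic) in the knockdown libraries, against 16.5, 20.4 and 15.4 FPKM in the matching control libraries. Its control nuclear library stood above the other 5. TRA2B (chr3:185633693-185655924) stood at 54.3 (whole-cell), 64.1 (nuclear) and 79.7 FPKM (cytosolic) in the knockdown libraries, against 50.2, 61.9 and 76.3 FPKM in the matching control libraries, highest in the cytosol in both conditions on the deposited scale.

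**Figure D1:**
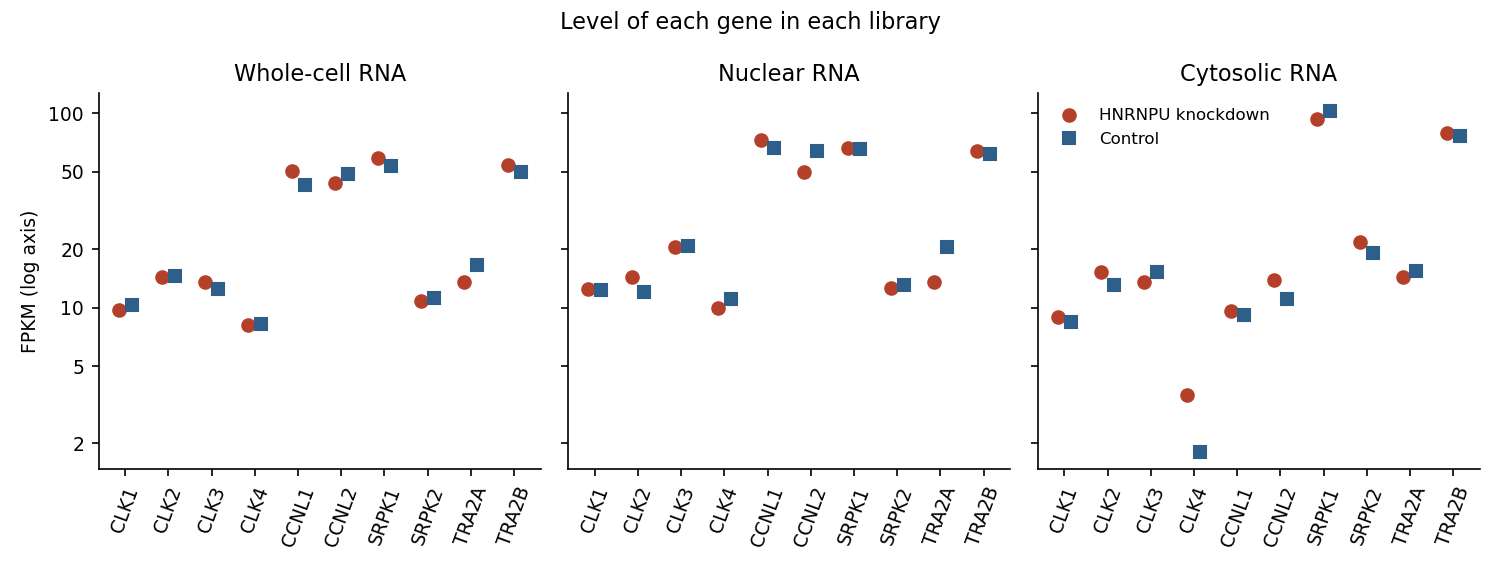
FPKM on a log axis of each gene in whole-cell, nuclear and cytosolic RNA, 1 point per library, with HNRNPU knockdown (circles) left of control (squares). CCNL1 and CCNL2 sit near 50 FPKM or above in nuclear RNA and under 14 FPKM in cytosolic RNA, and CLK4 is the lowest point of each panel.

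The nuclear to cytosolic ratio was highest for a trio of CCNL1, CCNL2 and CLK4. CCNL1 had 7.55 times as much FPKM in nuclear as in cytosolic RNA after knockdown and 7.20 times as much in the control. CCNL2 had ratios of 3.59 after knockdown and 5.78 in the control, and CLK4 2.81 after knockdown and 6.13 in the control. These 3 of 10 genes were at least 2-fold nuclear in each condition, against 5.62% of protein-coding loci after knockdown and 6.68% in the control. On the log2 scale CCNL1 stood at 2.90 after knockdown (95% 2.71 to 3.09) and 2.83 in the control (2.63 to 3.04), higher than 99.6% and 99.5% of protein-coding loci.

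On the deposited scale CLK1 and CLK3 were nuclear by less than 2-fold. With equal totals both passed 2-fold (log2 ratios of CLK1 1.42 after knockdown and 1.53 in the control, CLK3 1.55 and 1.44). Under that scaling 23.3% and 26.2% of protein-coding loci did so too. Scaled to the protein-coding median, CLK1 stood at 0.99 and 1.06 and CLK3 at 1.11 and 0.98. Quantile normalization gave 0.94 and 0.98 for CLK1 and 1.17 and 1.06 for CLK3. As deposited, the log2 ratio of CLK1 was 0.47 after knockdown and 0.54 in the control, and that of CLK3 0.59 and 0.45. CLK2 lay close to even, at -0.08 after knockdown and -0.11 in the control, both within counting error of 0. TRA2A was at -0.08 after knockdown, against 0.40 in the control. Under the 3 other scalings CLK2 in both conditions and TRA2A after knockdown were above 0, with CLK2 at 0.45 to 0.88 after knockdown and 0.40 to 0.88 in the control, and TRA2A at 0.44 to 0.88 after knockdown.

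TRA2B, SRPK1 and SRPK2 were higher in cytosolic RNA in both conditions on the deposited scale, a sign that turned for TRA2B under all 3 other scalings and for each SRPK gene under some of them. TRA2B had log2 ratios of -0.31 after knockdown and -0.30 in the control. SRPK1 had -0.49 and -0.65, and SRPK2 -0.78 and -0.55. The protein-coding loci had a median of -0.61 in both conditions, so these 2 kinases sat at the middle of all protein-coding genes: 55.3% of loci lay below SRPK1 after knockdown and 48.2% in the control, and 42.0% and 52.6% lay below SRPK2.

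A ratio above 0 was seen in 5 of the 10 genes after knockdown and in 6 in the control, against 24.8% and 26.7% of protein-coding loci. The median of the 10 genes was 0.20 after knockdown and 0.43 in the control, which is 0.80 and 1.04 above the protein-coding median. With no filter on low values that excess was 0.25 after knockdown and 0.44 in the control. Without the merged CLK4 locus the median of the other 9 genes was -0.08 after knockdown (an excess of 0.53) and 0.40 in the control (an excess of 1.01). In each condition 9 of the 10 genes exceeded that median, the exceptions being SRPK2 after knockdown and SRPK1 in the control. Other scalings moved the protein-coding median ratio up by 0.47 to 0.95 after knockdown and by 0.46 to 0.99 in the control.

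In the order of ratios, some neighbours could not be separated by counting. In the control CCNL1, CLK4 and CCNL2 lay within counting error of the next in order, as did CLK1, CLK3 and TRA2A, CLK2 and TRA2B, and SRPK2 and SRPK1. After knockdown CCNL1, CCNL2 and CLK4 were separated (2.90, 1.83 and 1.46). CLK3 and CLK1, and CLK2 and TRA2A, were the only neighbours then within counting error of each other.

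**Figure D2:**
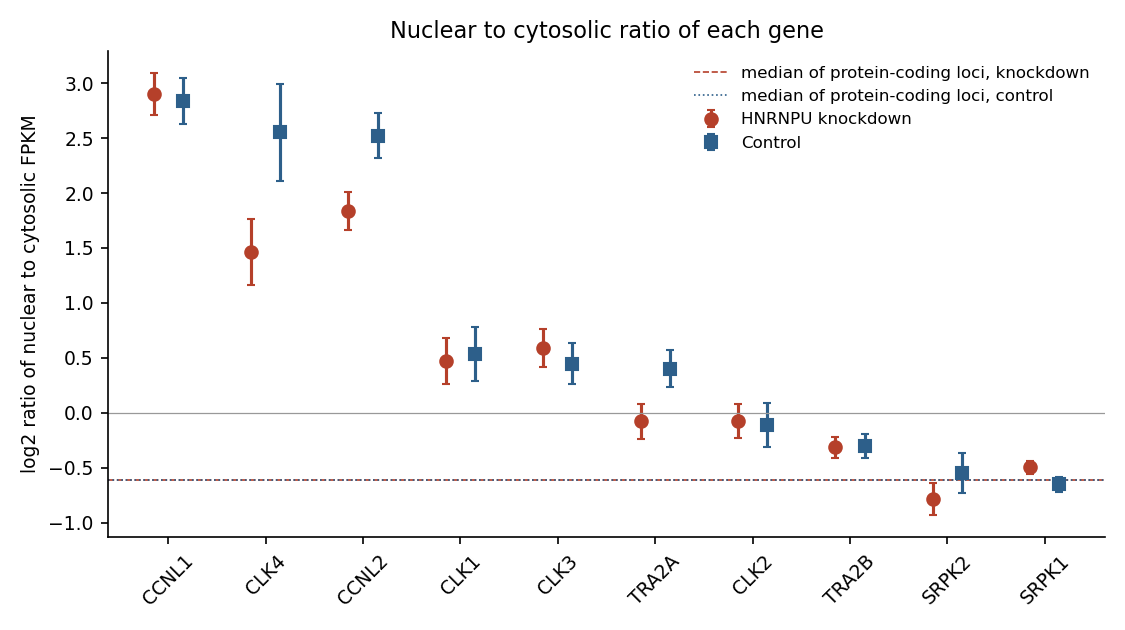
Log2 ratio of nuclear to cytosolic FPKM (y axis) of each gene, HNRNPU knockdown (circles) left of control (squares), ordered by the control. Bars are 95% ranges of the counting error from 1 library per fraction, and the dashed and dotted lines are the protein-coding medians, both at -0.61. CCNL1 is near 2.9 in both conditions, while CLK4 and CCNL2 are lower after knockdown than in the control.

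HNRNPU knockdown went with small differences in whole-cell RNA of these genes. None of the 10 was at least 1.5-fold apart, against 5.53% of protein-coding loci (3.28% higher, 2.25% lower). The log2 ratios of knockdown to control ran from -0.28 for TRA2A to 0.25 for CCNL1, with a median of -0.02 beside 0.07 for protein-coding loci. CCNL1 had 119% of its control level (log2 95% 0.15 to 0.35), SRPK1 110.3% and TRA2B 108%. CCNL2 had 89.0% and TRA2A 82.2%. The other 5 genes lay within counting error of no difference, between 94.9% and 109%. Scaled to the protein-coding median, SRPK1 had a log2 ratio of 0.07 (0.14 as deposited) and TRA2B 0.04 (0.11 as deposited). CCNL1 then had 0.17, CCNL2 -0.24 and TRA2A -0.36.

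In nuclear RNA only TRA2A, at 66.4% of control, was at least 1.5-fold apart (1 of 10, against 5.15% of protein-coding loci, 2.24% higher and 2.9% lower). Its log2 ratio was -0.59 (95% -0.72 to -0.45), lower than all but 2.85% of protein-coding loci, and it rests on about 1077 knockdown and 808 control fragments. CCNL2 had 77.6% of its control nuclear level, a log2 ratio of -0.36. CLK2 was at 119.5% and CCNL1 at 110.0%. With a pseudocount of 1 FPKM the TRA2A ratio was -0.56, short of 1.5-fold. The remaining 6 genes lay between 90.9% and 104%, within counting error.

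In cytosolic RNA CLK4 had 198% of its control level, a log2 ratio of 0.95 (95% 0.45 to 1.46), above 99.3% of protein-coding loci. It was the single gene of the 10 at least 1.5-fold apart, against 6.3% of protein-coding loci (3.26% higher, 3.04% lower). The values of CLK4 rest on about 100.4 fragments in knockdown and 45.7 in control cytosolic RNA, the fewest of any gene here. CCNL2 was at 125%, CLK2 at 117% and SRPK2 at 113% of control, and SRPK1 at 90.5%. CLK1, CLK3, CCNL1, TRA2A and TRA2B lay within counting error of no difference.

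Over the 3 preparations, CCNL1 and TRA2B were higher after knockdown in each (2 of 10, against 26.9% of protein-coding loci), and TRA2A was lower in each (1 of 10, against 12.9%). The other 7 changed sign between preparations.

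To compare fractions between conditions, the control value of each log2 nuclear to cytosolic ratio was subtracted from its knockdown value. This localization shift is below 0 where the RNA was relatively more cytosolic after knockdown. CLK4 had a shift of -1.09 (95% -1.62 to -0.55), lower than all but 1.09% of protein-coding loci. CCNL2 had -0.69 (-0.95 to -0.42), lower than all but 3.86%. These 2 of 10 genes were shifted at least 1.5-fold toward the cytosol, against 5.62% of protein-coding loci, and 0 of 10 toward the nucleus, against 4.3%. Either way the count was 2 of 10, against 9.92%, and CLK4 alone passed 2-fold toward the cytosol, against 1.47%. Of the 609 protein-coding loci that were at least 2-fold nuclear by the mean of both conditions, 15.9% were shifted at least 1.5-fold toward the cytosol and 9.03% toward the nucleus, with a median shift of -0.12. CLK4, CCNL1 and CCNL2 belong to those 609.

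The shifts were built differently. For CLK4 nuclear RNA differed little (10.0008 FPKM after knockdown and 11.01 FPKM in the control) and cytosolic RNA was higher (3.57 FPKM after knockdown and 1.80 FPKM in the control), with whole-cell RNA at 98.5% of control. For CCNL2 nuclear RNA was lower and cytosolic RNA higher. For TRA2A, with a shift of -0.48 (-0.72 to -0.25), the difference lay in nuclear RNA, and its cytosolic ratio was -0.11. SRPK1 had 0.16 (0.06 to 0.25), and SRPK2 -0.23 (-0.47 to -0.000619). The shifts of CLK1, CLK2, CLK3, CCNL1 and TRA2B, from -0.07 to 0.14, lay within counting error of 0. The median of the 10 genes was -0.04, beside 0.00261 for protein-coding loci.

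The CLK4 locus also carries RN7SKP70, and 7SK RNA itself was far more abundant than CLK4. The cytosolic libraries held 276397 FPKM of RN7SK after knockdown and 260255 FPKM in the control, the nuclear ones 54253 FPKM after knockdown and 76012 FPKM in the control. This is a shift of -0.57 with a cytosolic log2 ratio of 0.09. Its part in the CLK4 value was not tested. On the deposited scale RN7SK was higher in cytosolic than in nuclear RNA in both conditions. The purity of the fractions was not tested, and all nuclear to cytosolic ratios and shifts given here rest on it. Without the merged locus 1 gene of 9 was shifted at least 1.5-fold, against 9.92% of protein-coding loci either way. In cytosolic RNA 0 of 9 differed 1.5-fold, against 6.3%. Both counts are near the shares over all protein-coding loci. With a pseudocount of 1 FPKM the CLK4 shift was -0.83 and with quantile normalization -0.85, both under 2-fold.

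**Figure D3:**
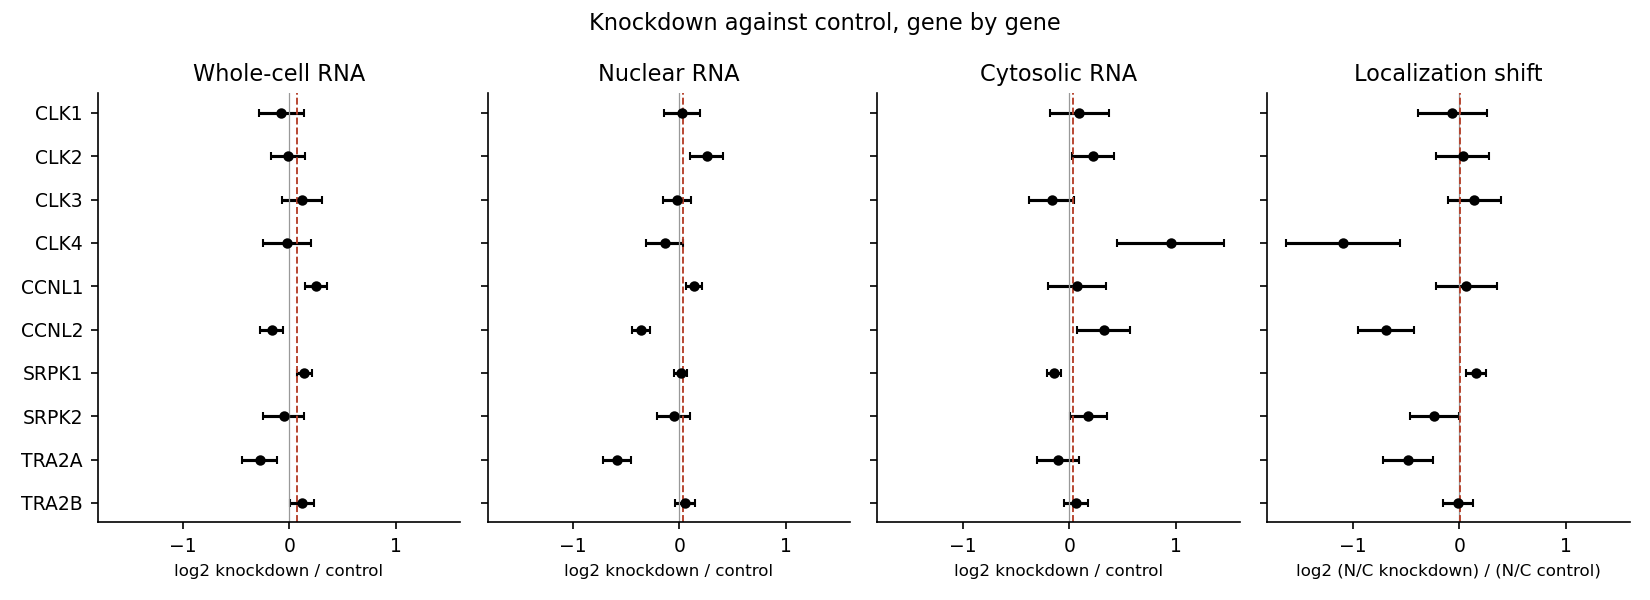
Log2 ratio of knockdown to control FPKM of each gene in whole-cell, nuclear and cytosolic RNA, and the localization shift, all on the x axis. Bars are 95% ranges of the counting error from 1 library per group, and dashed lines are the medians of protein-coding loci. CLK4 stands out in cytosolic RNA (0.95) and in the shift (-1.09), and TRA2A in nuclear RNA (-0.59).

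Of 9 pairs within the families, 4 pairs of closest relatives are given first. CCNL1 minus CCNL2 came to 0.75 in shift (counting SE 0.20), CLK1 minus CLK4 to 1.02 (SE 0.32), TRA2A minus TRA2B to -0.47 (SE 0.14) and SRPK1 minus SRPK2 to 0.39 (SE 0.13). These differences exceed their 95% counting ranges. Among CLK1, CLK2 and CLK3 the differences in shift, from -0.21 to -0.10, lay within counting error, while CLK2 minus CLK4 was 1.12 (SE 0.30) and CLK3 minus CLK4 1.23 (SE 0.30). In the control CCNL1 minus CCNL2 was 0.31 in log2 nuclear to cytosolic ratio (SE 0.15), slightly past its 95% counting range. CLK1 minus CLK4 was -2.01 there (SE 0.26). The longest coding transcripts of CLK1, CLK4, CCNL1, CCNL2, TRA2A and TRA2B shared no window of 50 bases with transcripts of any other gene in GENCODE 29. Such windows made up 6.09% of the CLK2 transcript, shared with the pseudogene CLK2P1, 6.29% of CLK3, 4.86% of SRPK1 and 2.05% of SRPK2. Only exact matches were sought, and the RN7SKP70 part of the CLK4 locus was not covered. The part of shared fragments in the differences between pairs was not tested.

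Intron-keeping transcripts are annotated for most of these genes. CCNL1 has 16 retained-intron models, CCNL2 9, CLK1, CLK3 and TRA2B 8 each, CLK4 7, SRPK1 and TRA2A 4 each, SRPK2 2 and CLK2 none. At least 4 such models were present in 8 of the 10 genes, against 20.3% of the 8657 protein-coding loci with a single name of that release. The nuclear trio holds 7, 9 and 16 models, and TRA2B with 8 was more abundant in cytosolic RNA on the deposited scale, though not under the 3 other scalings. Over the 8657 loci the nuclear to cytosolic ratio had a log2 median of -0.74 after knockdown and -0.76 in the control without such models, and -0.13 and -0.05 with 8 or more. Loci with 4 to 7 models had -0.38 after knockdown and -0.33 in the control. CCNL1, CCNL2 and CLK4 lay far above these medians, though CLK4, in a merged locus, is not among the 8657. Loci with more models also had higher levels (a median of 17.9 FPKM with 8 or more, 9.01 FPKM with none), and the part of level in this pattern was not tested. The median shift was 0.02 without models and -0.03 with 8 or more.

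The 24 annotated introns of the 8 genes had a median GC content of 34.3%, against 56.4% over the 10224 introns. They had a median length of 428 bases against 266. CLK3 and SRPK1 lay above the wider median, at a median of 58.3% in 3 introns and 77.4% in 2 introns that share an end.

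**Figure D4:**
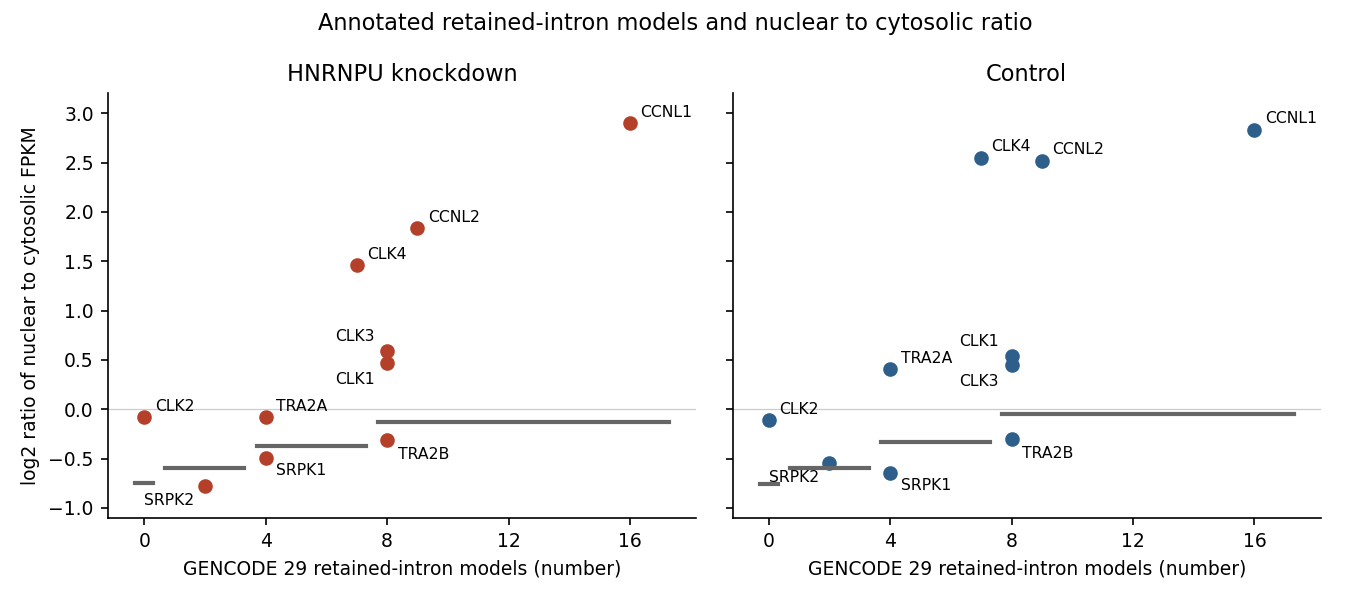
Number of GENCODE 29 retained-intron models of each gene (x axis) and its log2 ratio of nuclear to cytosolic FPKM (y axis), HNRNPU knockdown left and control right. Grey bars are medians of the protein-coding loci with 0, 1 to 3, 4 to 7 and 8 or more models. CCNL1, with 16 models, is the highest in both panels, and TRA2B, with 8, lies below 0 in both on the deposited scale (above 0 under the 3 other scalings).

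To place these patterns, each gene was compared with the other 7984 protein-coding loci of at least 5 FPKM by the distance between log2 levels over the 6 libraries, centred on the locus mean. Ratios and shifts come from the same 6 values, so their likeness in the nearest loci is set by the selection. The nearest to CCNL1 was OGT, the enzyme that adds O-GlcNAc to proteins and another transcript known for a detained intron (distance 0.26). The next was C1orf63, now called RSRP1, which encodes a small SR-related protein (0.33). OGT had log2 nuclear to cytosolic ratios of 2.80 after knockdown and 2.93 in the control. The nearest to CCNL2 was TRIM52, of the tripartite-motif family, at a distance of 0.07, with a shift of -0.69, and TRIM52 was also among the 3 nearest to CLK4 (0.49). ANKRD36B was the nearest to CLK4 (0.39), with a shift of -0.50. When the other 9 genes were added to the comparison (7993 loci), 4 loci lay nearer to CLK4 than CCNL2 did, and 15 lay nearer to CCNL1 than CCNL2 did. TRA2B lay nearest to CHTOP, an mRNA export factor (0.06), and CLK3 to LBR, the lamin B receptor (0.07).

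The SR protein genes, whose products these kinases phosphorylate, had lower nuclear to cytosolic ratios than CLK4 and the cyclin L genes. Of the SR protein genes SRSF1 to SRSF12, 11 of 12 passed the minimum, and 1 of them, SRSF5, was at least 2-fold nuclear in each condition, with ratios of 1.02 after knockdown and 1.45 in the control. Their median was -0.02 after knockdown and 0.11 in the control. Of 14 other splicing-related or cyclin-dependent kinases and cyclins, 13 passed, with medians of -0.06 and -0.00856. The pre-mRNA splicing kinase PRPF4B was the only member of that list at least 2-fold nuclear, at 1.55 and 1.38. Of the kinase partners of cyclin L, CDK11A, in a merged locus, stood at 0.46 after knockdown and 0.57 in the control, and CDK11B at -0.06 and -0.21. The CDK11 genes are near-identical copies, so counting could have split their fragments either way.

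Of 18 loci of SR-related speckle proteins, 7 were at least 2-fold nuclear after knockdown and 8 in the control, against 5.62% and 6.68% of protein-coding loci. C1orf63 stood at 2.73 after knockdown and 2.94 in the control, and NKTR, a cyclophilin-related protein with SR repeats, at 2.42 and 2.26. The list's median was 0.69 and 0.65. Of 12 other transcripts known for detained or retained introns, 4 of which are also counted in the speckle list, 4 were at least 2-fold nuclear after knockdown and 6 in the control, with medians of 0.68 and 0.94. MAT2A, the methionine adenosyltransferase gene, was the lowest, at -0.77 after knockdown and -0.80 in the control. Shifts of at least 1.5-fold toward the cytosol were found in 1 of the 18 speckle loci, LUC7L3 (-0.71), in 2 of the 13 kinases and cyclins, the dual-specificity kinases DYRK1A (-0.64) and DYRK1B (-1.21), and in none of the 11 SR protein genes or the 12 detained-intron transcripts, against 5.62% of protein-coding loci. The share of the speckle list is near that background.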

How the data were processed

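The authors deposited 1 table of FPKM values, 1 column per library. The unit rests on the values and the tools, since the header is silent. Tools listed without roles in the submitters' processing notes are TopHat2 2.0.13, Cuffdiff 2.2.1, CASAVA and FastQC. The same notes list mm9 and hg19 as builds. Library scaling, annotation and strand use are not stated. Columns were matched to samples by the code in each sample's title. Ratios are differences of log2(FPKM + 0.1) over loci averaging 1 FPKM or more. Gene types and retained-intron models came from GENCODE 29 by symbol. The FPKM of 1 fragment per kilobase was estimated from the steps between low values of single-exon loci, after shortening each by 220 bases. Counting errors used mean coding transcript lengths. All 10 genes are named, and the 3 nearest loci of each were found by rule. The members and lists were chosen with earlier results of these data known. A test of condition over the 3 preparations was left out because the labels do not say that they were separate cultures. Calculations used Python 3.11.15, numpy 2.4.6, pandas 2.3.3 and matplotlib 3.10.9 and were tested on simulated libraries. The 8 alternatives tried cover pseudocount, filter, scaling and merged loci.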

Additional observations from a re-analysis of the deposited data

Results flagged for a closer look

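CCNL2 was the gene whose nuclear and cytosolic RNA moved in opposite directions after knockdown with both differences outside the 95% range of their counting error. Its log2 ratio of knockdown to control was -0.36 in nuclear RNA and 0.32 in cytosolic RNA. The difference between the fractions is the localization shift, -0.69 (95% counting range -0.95 to -0.42). Each direction rests on 1 library against 1, so the difference was not tested over replicates.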

How the results depend on the processing

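No paired analysis was possible because the labels carry no replicate numbers and each group has 1 library, which also leaves no replicate to drop. A fit with preparation as a block was left out, not impossible. The shifts of CLK4, CCNL2 and TRA2A kept their direction under every alternative that could be run for them, at -1.12 to -0.83, -0.72 to -0.66 and -0.54 to -0.46. When totals were equalised after leaving out mitochondrial and small RNAs, 5 genes were at least 2-fold nuclear after knockdown and 6 in the control, beside 23.3% and 26.2% of protein-coding loci under that scaling. With quantile normalization 5 were in the control, beside 10.9%. Those scalings turned the control ratio of SRPK1 to 0.35 (equal totals) and 0.39 (quantile), and equal totals turned the knockdown ratio of SRPK2 to 0.18. Other signs turned too: with equal totals SRPK1 after knockdown was at 0.47, SRPK2 in the control at 0.45 and TRA2B at 0.65 after knockdown and 0.70 in the control, and CLK2 and TRA2A turned as given above. With a pseudocount of 1 FPKM 0 genes were 1.5-fold apart in nuclear RNA, since TRA2A then had -0.56. Without the merged CLK4 locus 1 gene was shifted 1.5-fold and 0 differed 1.5-fold in cytosolic RNA, near the 9.92% and 6.3% of protein-coding loci. Depth limits CLK4 most.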

Other observations

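The whole-cell level lay between those of the fractions for 6 of the 10 genes after knockdown and for 5 in the control. The share of all protein-coding loci that did so was not counted, so these counts cannot be called particular to the genes. CLK2 lay below both fractions after knockdown and above both in the control, and CLK3 lay below both in the control only. Both SRPK genes and TRA2B had less FPKM in whole-cell RNA than in either fraction in both conditions: SRPK1 had 59.0 FPKM in whole-cell, 66.5 in nuclear and 93.6 FPKM in cytosolic RNA after knockdown. The cause was not tested.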
